A study of Mus musculus with 33 samples.

Results

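Creatine kinase moves a phosphate group between ATP and creatine, and the genes described here are the creatine kinases of the heart and the genes that supply or support them. They were taken by symbol, and all 7 are among the 14862 gene rows of the count table: Ckm, Ckb, Ckmt2, Gatm, Gamt, Slc6a8 and Ak1. The values are read counts from 33 single cells dissociated from the ventricles of mice that all carry the mAG-Geminin transgene, a green fluorescent geminin reporter. Cells were sorted by the reporter (mAG-hGem) at embryonic day 14.5 (E14.5) or postnatal day 5 (P5). The reporter-positive groups hold 10 cells at E14.5 and 6 cells at P5, and the reporter-negative groups hold 11 cells at E14.5 and 6 at P5. No other allele and no treatment is named, and the labels give neither the promoter of the transgene nor the number of animals. Each group was therefore handled as 1 sample: counts were summed over its cells, ratios carry an exact 95% interval for counting error only, and no p-value was computed.

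In a beating heart, ATP is made mainly in mitochondria and used mainly at the myofibrils and ion pumps. Mitochondrial creatine kinase (Ckmt2) charges creatine to phosphocreatine next to the ATP exporter of the inner membrane, and cytosolic dimers of the muscle subunit (Ckm) and the brain subunit (Ckb) use phosphocreatine to remake ATP where it is spent. Adenylate kinase (Ak1) regenerates ATP from ADP by a parallel reaction. Creatine itself is made by Gatm and then Gamt, chiefly in kidney and liver, and muscle cells take it up from blood through the transporter Slc6a8.

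The stretches before the start sites of the 3 creatine kinase genes are shown because they encode the enzymes at the core of the system. They come from the RefSeq table of assembly GRCm38.p6, are written 5′ to 3′ on the gene's own strand, and have in capitals each match, on either strand, to the E-box CANNTG or to the MEF2 element (CTA and TAG with 4 bases between them). The Ckm stretch is chr7:19410844-19411024 on the + strand, the Ckmt2 stretch is chr13:91876886-91877135 on the - strand, and the Ckb stretch is chr12:111672339-111672588 on the - strand.
Ckm: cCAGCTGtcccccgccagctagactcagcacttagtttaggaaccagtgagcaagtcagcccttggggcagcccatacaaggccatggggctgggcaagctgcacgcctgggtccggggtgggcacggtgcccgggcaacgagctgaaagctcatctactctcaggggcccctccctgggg
Ckmt2: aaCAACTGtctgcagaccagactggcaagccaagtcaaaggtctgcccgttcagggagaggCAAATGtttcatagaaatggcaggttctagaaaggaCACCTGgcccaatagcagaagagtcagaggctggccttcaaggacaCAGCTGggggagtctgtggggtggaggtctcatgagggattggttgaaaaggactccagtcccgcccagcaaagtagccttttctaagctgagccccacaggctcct
Ckb: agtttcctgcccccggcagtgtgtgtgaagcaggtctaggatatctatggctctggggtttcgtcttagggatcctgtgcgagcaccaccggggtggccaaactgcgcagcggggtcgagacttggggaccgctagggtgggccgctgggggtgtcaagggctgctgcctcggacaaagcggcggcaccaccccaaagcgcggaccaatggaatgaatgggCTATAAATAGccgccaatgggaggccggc
Ckm has 1 E-box, 249 bases before its RefSeq start, and its stretch is 181 bases long because it is cut where an annotated exon begins. The GENCODE M21 gene Ckm (chr7:19404776-19422841) begins before this stretch, which therefore lies inside that gene model. Ckmt2 has 4 E-boxes, at 248, 189, 153 and 107 bases before its start. Ckb has no E-box and 1 MEF2 match at 29 bases before its start, which overlaps a TATA box (TATAAA) at 28 bases. Of 32851 windows of 250 bases before RefSeq start sites, 66.2% held an E-box, 3.2% a MEF2 match and 12.4% a TATA box. An E-box is therefore common in such windows, whereas the MEF2 match of Ckb belongs to a sequence that also reads as a TATA box. No window of the 6 genes in that table held the estrogen-related receptor element TNAAGGTCA, found in 1.14% of all windows, or a CArG box, found in 1.47%. These matches describe letters only, and binding was not measured.

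The labels call all 33 samples single cardiomyocytes, and this was checked with 11 cardiomyocyte markers, among them Tnnt2, Tnni3 and Myh6. Levels are given as CPM, a gene's reads per 1000000 counted reads of the cell or group. The summed markers ranged from 13304 to 41531 CPM in the E14.5 positive cells and from 15239 to 43842 CPM in the E14.5 negative cells. In 5 of 6 P5 positive cells they were the highest of the 5 cell type lists, and the sixth (L2P12) had 112 CPM of them beside 2605 CPM of 6 endothelial markers. In all 6 P5 negative cells another list was higher. Cardiomyocyte markers ran from 0.553 to 3292 CPM there and endothelial markers from 298 to 13051 CPM. The endothelial list stood highest in L2N4, L2N7, L2N9 and L2N10. Fibroblast and mural markers led L2N12, at 19402 CPM beside 298 CPM for the endothelial list. The red blood cell list stood highest in L1N3, at 2850 CPM beside 2230 CPM for the endothelial list. One E14.5 negative cell (N10) had 46245 CPM of fibroblast and mural markers. The P5 negative group thus goes against its cell type label, and 25 cells led by cardiomyocyte markers give the values set beside the group sums below. Cells held 2545036 to 38465225 counts, with a median of 12807230. All values of 1 cell come from 1 library, so levels that move together within it share its depth and its amplification.

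Muscle creatine kinase was present in every E14.5 cell, highest in P5 positive cells and unread in P5 negative cells. Ckm (chr7:19404776-19422841, + strand, mm10) had 1190, 333, 2236, 2.75, 323 and 2481 CPM in the P5 positive cells L2P7, L2P3, L2P10, L2P12, L1P5 and L2P8. The low cell is L2P12, the one led by endothelial markers, and the 5 cardiomyocyte-led cells split into 2 at 323 and 333 CPM and 3 from 1190 to 2481 CPM. In E14.5 positive cells Ckm ran from 3.94 to 376 CPM with a median of 69.4. In E14.5 negative cells it ran from 9.18 to 356 CPM with a median of 173. No read of Ckm was counted in any of the 6 P5 negative cells, which allows a group level of up to 0.0445 CPM by the exact Poisson interval. Summed over cells, Ckm stood at 1252 CPM (1245 to 1259) in P5 positive, 202 CPM (200.2 to 204) in E14.5 negative and 169 CPM (167 to 171) in E14.5 positive cells. Both E14.5 groups overlap almost entirely, and the highest E14.5 cell (G27, 376 CPM) lies above the P5 cells L2P3 and L1P5.

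**Figure D1:**
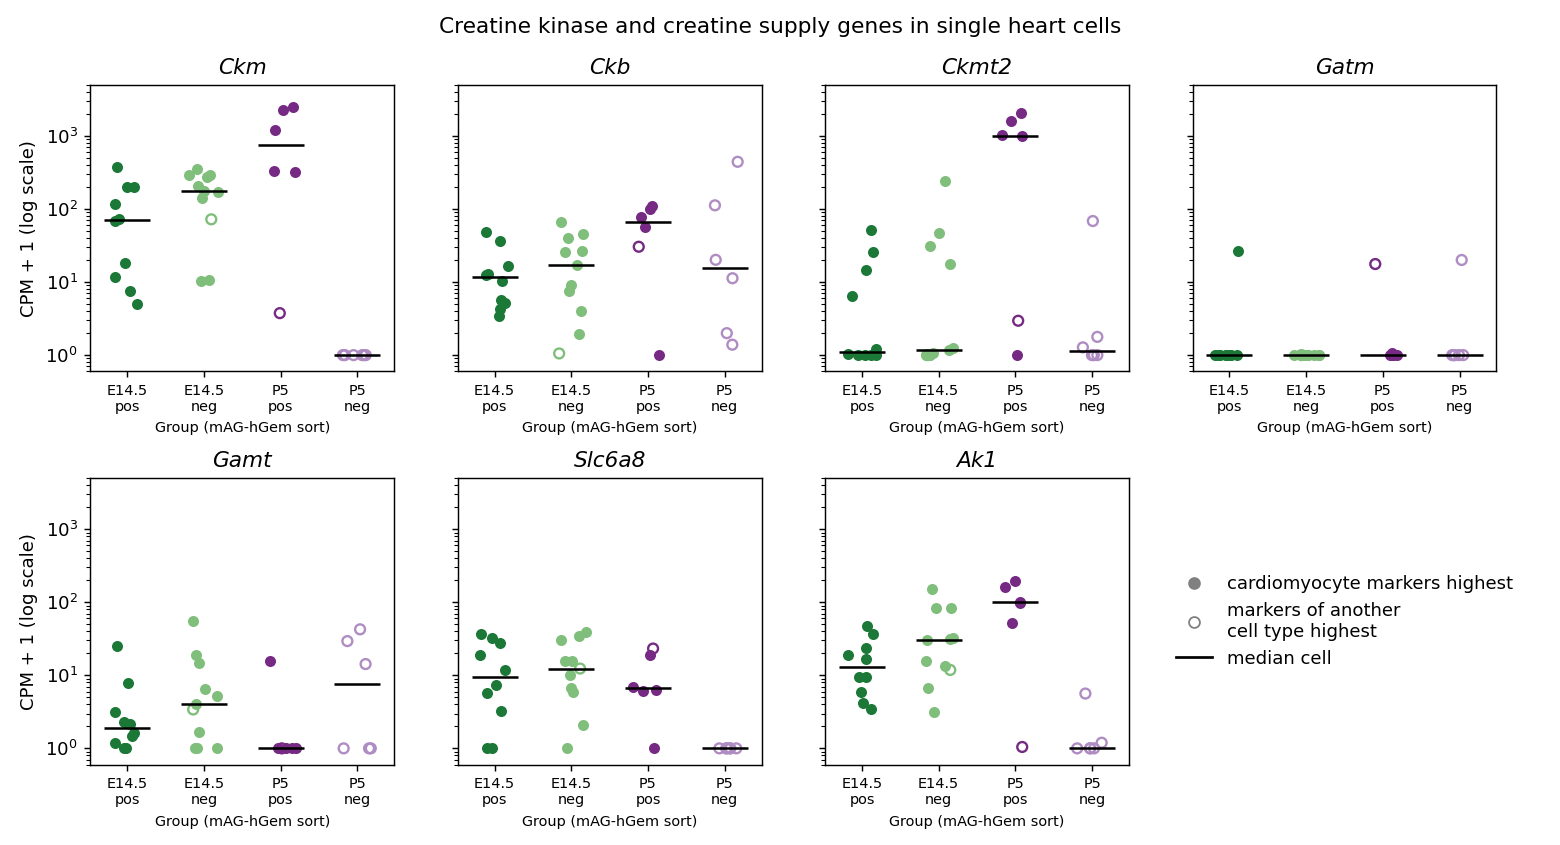
Each point is 1 cell: CPM + 1 on a log scale for each of the 7 genes, in positive (n = 10) and negative (n = 11) cells of E14.5 and positive (n = 6) and negative (n = 6) cells of P5; filled points are cells whose cardiomyocyte markers exceed those of every other type, open points are the other cells, and bars are medians. The P5 positive cells reach 2481 CPM of Ckm and 2064 CPM of Ckmt2, and all 6 P5 negative cells are at 0 for Ckm and Slc6a8.

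From E14.5 to P5 among reporter-positive cells, Ckm was 7.43-fold higher, a log2 ratio of 2.89 (2.87 to 2.91). With only cardiomyocyte-led cells it was 1656 against 169 CPM, a log2 ratio of 3.30. Single cells set much of this size: 57.5% of the P5 reads came from L2P8 and 54.3% of the E14.5 reads from G27, and the log2 ratio was 2.15 without L2P8 and 3.62 without G27. The E14.5 positive cells also differ by the numbers in their titles: Ckm was 27.4 CPM over the 6 cells numbered 1 to 10 and 252 CPM over the 4 numbered 21 to 30, and the log2 ratio of P5 was 5.51 over the first and 2.32 over the second. The cardiomyocyte markers moved with it. Per 1000 marker reads, Ckm had 7.78 to 26.1 reads in the 5 cardiomyocyte-led P5 positive cells (median 20.7) and 0.284 to 10.4 reads in the E14.5 positive cells (median 3.44), so the groups overlap only between 7.78 and 10.4. Scaled to marker reads over whole groups, the log2 ratio was 1.73. Cycling markers (6 genes) spanned 19.4 to 6781 CPM in P5 positive cells and 596 to 5992 CPM in E14.5 positive cells, and their part in the result was not tested. A Ckm level of 10 CPM or more was reached by 5 of 6 positive cells at P5 and by 8 of 10 at E14.5.

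The brain subunit was also higher in P5 positive cells, by a smaller step and from a lower level. Ckb (chr12:111669361-111672338, - strand) had 99.0, 76.9, 108, 29.4, 0 and 55.9 CPM in the P5 positive cells L2P7, L2P3, L2P10, L2P12, L1P5 and L2P8. The cell without a read, L1P5, is also the shallowest of the series at 2545036 counts. E14.5 positive cells ran from 2.39 to 47.6 CPM (median 10.6) and E14.5 negative cells from 0.0534 to 65.0 CPM (median 16.0). The summed level was 15.2 CPM (14.6 to 15.8) at E14.5 and 64.3 CPM (62.7 to 65.9) at P5, a log2 ratio of 2.08 (2.01 to 2.15), and it was 2.32 with cardiomyocyte-led cells only. Scaled to cardiomyocyte marker reads, the log2 ratio was 0.92, below the 2-fold threshold, on a scale where the median of all genes was -1.23. Ckb differs from Ckm in the P5 negative group, where Ckm is at 0: all 6 of those cells had reads of Ckb, at 1.00, 10.3, 19.2, 442, 0.388 and 111 CPM in L2N9, L2N7, L2N12, L2N10, L2N4 and L1N3. The cell at 442 CPM, L2N10, holds 81.9% of the group's Ckb reads and also has 2939 CPM of red blood cell markers. L1N3, the next at 111 CPM, has 2850 CPM of them, and the part of these markers in the Ckb level was not tested.

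The 2 cytosolic subunits were compared as the share of Ckm in the reads of Ckm plus Ckb. This share was not scaled to transcript length (longest coding transcripts of 2742 bases for Ckm and 1472 for Ckb). It is thus a share of reads and not of transcripts or protein. Ckm made up 91.7% (exact binomial interval 91.4 to 92.1) in E14.5 positive, 89.3% (89.0 to 89.6) in E14.5 negative and 95.1% (95.0 to 95.2) in P5 positive cells. In P5 negative cells it was 0%, with an upper bound of 0.047%. By cell the share ran from 35.6 to 98.9% in E14.5 positive cells (median 81.0%) and from 54.3 to 99.9% in E14.5 negative cells (median 90.2%). In the P5 positive cells it was 92.3, 81.2, 95.4, 8.55, 100 and 97.8% for L2P7, L2P3, L2P10, L2P12, L1P5 and L2P8. The 5 cardiomyocyte-led P5 cells thus fall within the E14.5 range except L1P5, in which no Ckb read was counted. The sum of both subunits went from 184 CPM in E14.5 positive to 1316 CPM in P5 positive cells.

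Mitochondrial creatine kinase showed the steepest age ratio of the 7 genes. Ckmt2 (chr13:91853387-91876885, - strand) encodes the sarcomeric mitochondrial enzyme of striated muscle. Its P5 positive cells had 1040, 988, 1627, 1.95, 0 and 2064 CPM in L2P7, L2P3, L2P10, L2P12, L1P5 and L2P8. These are 4 cells from 988 to 2064 CPM and 2 at or near 0: the endothelial-marker cell L2P12 and the shallow cell L1P5, whose cardiomyocyte markers stood at 22352 CPM and whose Ckm stood at 323 CPM. E14.5 positive cells ran from 0 to 50.5 CPM with a median of 0.120, and E14.5 negative cells from 0 to 238 CPM with a median of 0.172. At least 10 CPM was seen in 3 of 10 and 4 of 11 E14.5 cells, against 4 of 6 P5 positive cells. In sum, Ckmt2 had 14.7 CPM (14.1 to 15.3) at E14.5 and 1127 CPM (1120 to 1133) at P5, a log2 ratio of 6.26 (6.20 to 6.32). With cardiomyocyte-led cells only it was 6.66, and scaled to cardiomyocyte markers 5.10. G27 held 83.4% of the E14.5 positive reads and L2P8 53.2% of the P5 positive reads. Without G27 the log2 ratio was 8.45 and without L2P8 it was 5.66. Per 1000 cardiomyocyte marker reads, the cardiomyocyte-led cells had 0 to 23.1 Ckmt2 reads at P5 (median 18.1), at most 1.39 in E14.5 positive and at most 9.73 in E14.5 negative cells.

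**Figure D2:**
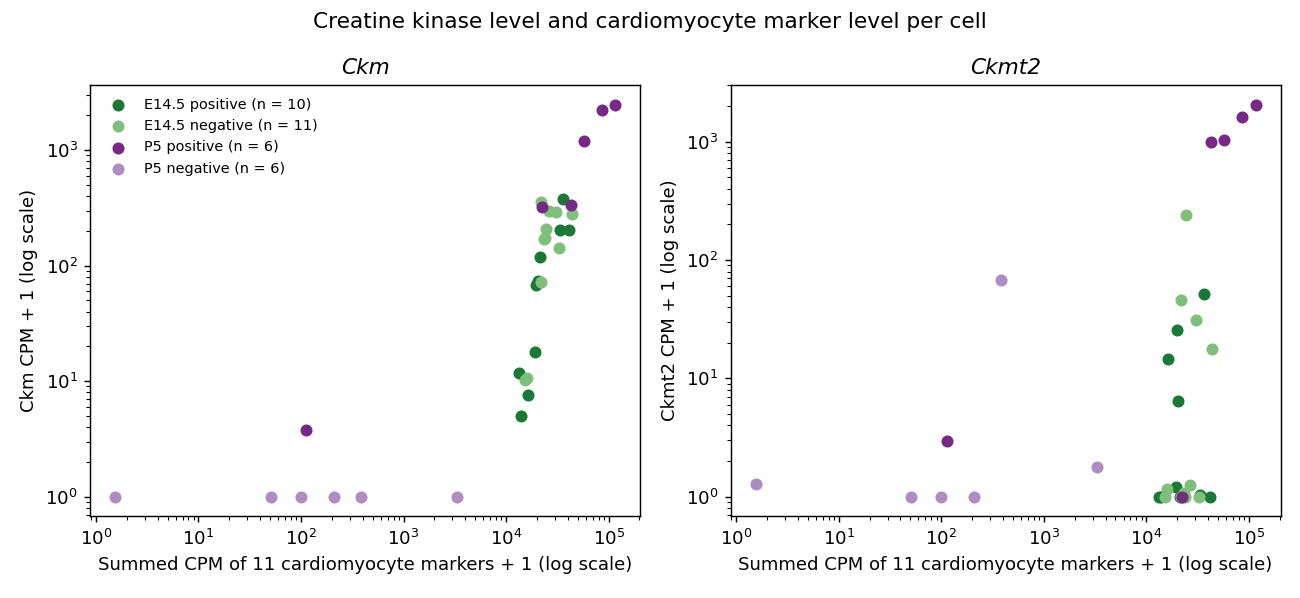
Ckm (left) and Ckmt2 (right), as CPM + 1, against the summed CPM + 1 of 11 cardiomyocyte markers, both on log scales; each point is 1 cell, coloured by group. Ckm climbs along the marker level across the E14.5 cells, from 3.94 to 376 CPM, whereas most E14.5 cells lie near 0 for Ckmt2 and 4 P5 positive cells lie between 988 and 2064 CPM.

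At E14.5, Ckm followed the cardiomyocyte markers from cell to cell more closely than Ckmt2 did. Over the 20 cardiomyocyte-led E14.5 cells, on log2(CPM + 1), Ckm against the summed markers gave Pearson r = 0.84 and Spearman rho = 0.83, and Ckmt2 gave r = 0.23 and rho = 0.27. Ckm against the cells' total counts gave r = 0.55 and rho = 0.66, so depth moved with Ckm too. Ckm with Ckb gave r = 0.51, Ckm with Ak1 r = 0.59, and Ckm with Ckmt2 r = 0.37. Over the 25 cardiomyocyte-led cells of both ages the values against the markers were closer, at r = 0.87 and rho = 0.85 for Ckm and r = 0.70 and rho = 0.56 for Ckmt2. These are descriptions over values that share each cell's library, with no test.

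Adenylate kinase 1, the cytosolic isoform of muscle, was higher at P5 like the creatine kinases. Ak1 (chr2:32621758-32635058, + strand) had 160, 100.4, 97.1, 0.0444, 51.1 and 192 CPM in the P5 positive cells L2P7, L2P3, L2P10, L2P12, L1P5 and L2P8. All 5 cardiomyocyte-led P5 cells lie above the highest E14.5 positive cell (46.0 CPM, with a lowest of 2.49 and a median of 12.2), and L2P12 lies below them all. E14.5 negative cells reached further, from 2.17 to 152 CPM (median 29.2): N30 at 152 CPM lies above L2P3, L2P10 and L1P5, and N28 and N25 had 82.8 and 82.4 CPM. The sums were 109 CPM (107 to 111) and 18.0 CPM (17.3 to 18.7), a log2 ratio of 2.60 (2.53 to 2.66), and 2.999 with cardiomyocyte-led cells only. Leaving out each cell in turn kept the log2 ratio between 2.05 and 2.999, and scaling to cardiomyocyte markers gave 1.44. In P5 negative cells Ak1 was near 0: only L2N12 (4.63 CPM) and L2N4 (0.194 CPM) had reads.

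Genes of creatine synthesis were read in few cells. Gatm (chr2:122594467-122611303, - strand), the amidinotransferase of the first step, had at least 10 CPM in 3 of the 33 cells, 1 each in E14.5 positive (G6, 25.4 CPM), P5 positive (L2P12, 16.7 CPM) and P5 negative (L2N9, 19.1 CPM). It had no read in the 11 E14.5 negative cells. In P5 positive cells its one other reading was 0.0748 CPM in L2P8, so the 5 cardiomyocyte-led P5 cells summed to 0.0287 CPM. Gamt (chr10:80258151-80261012, - strand), the methyltransferase of the second step, had reads in 8 of 10 E14.5 positive cells, at 0 to 23.9 CPM (median 0.876), and in 8 of 11 E14.5 negative cells, at 0 to 54.1 CPM (median 3.09). At P5 it was read in 1 of 6 positive cells (L2P10, 14.6 CPM) and 3 of 6 negative cells (L2N9, L2N7 and L2N10, at 28.4, 41.6 and 13.3 CPM). The group sums of Gamt were 4.59 and 9.90 CPM in the positive and negative cells of E14.5, and 1.997 and 20.3 CPM in those of P5. Gatm and Gamt were under 10 CPM in both reporter-positive groups, and the log2 ratios over age of 1.56 and -1.20 each turn on 1 or 2 cells. Without L2P12, Gatm had 2 reads at P5 and a log2 ratio of -5.60 (-8.65 to -3.73). Without G6 it had none at E14.5 and was at least 204-fold higher at P5, against a floor of 3 counts. Without L2P10, Gamt had no read at P5 and was at least 122-fold lower there against the same floor, and without G25 its log2 ratio was -0.20.

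The creatine transporter was not higher at P5 in the way the kinases were. Slc6a8 (chrX:73673150-73682502, + strand) had 5.35, 5.05, 17.7, 22.3, 5.89 and 0 CPM in the P5 positive cells L2P7, L2P3, L2P10, L2P12, L1P5 and L2P8. E14.5 positive cells ran from 0 to 36.0 CPM (median 8.62) and E14.5 negative cells from 0 to 38.4 CPM (median 11.4), so the 3 groups overlap over most of their range. The sums were 9.58 CPM (8.96 to 10.2) at P5 and 9.54 CPM (9.06 to 10.03) at E14.5 among positive cells, a log2 ratio of 0.01 (-0.11 to 0.13). The highest P5 positive value belongs to L2P12, and without it, which is also the set of cardiomyocyte-led cells, the sum was 5.49 CPM and the log2 ratio -0.80. Against only the E14.5 positive cells with title numbers 1 to 10 it was -0.85, and against those with 21 to 30 it was 0.95. No read of Slc6a8 was counted in the P5 negative cells, which allows up to 0.0445 CPM over the group by the exact Poisson interval. The 2 cells with the most Ckm and Ckmt2 differed for the transporter: L2P8 had no read of Slc6a8 and L2P10 had 17.7 CPM.

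Levels of different genes can be set side by side only per transcript length. Divided by the longest coding transcript in GENCODE M21, P5 positive cells had 758 CPM per kb of Ckmt2, 457 of Ckm, 52.2 of Ak1, 43.7 of Ckb, 2.42 of Slc6a8, 2.02 of Gamt and 1.71 of Gatm. The order of the first 2 depends on the model, since the shortest coding Ckm transcript (1235 bases in place of 2742) gives 1014 CPM per kb. Both kinases stand above Ak1 and Ckb with either model. In E14.5 positive cells the order was Ckm at 61.5, Ckb at 10.3, Ckmt2 at 9.91, Ak1 at 8.63, Gamt at 4.65, Slc6a8 at 2.41 and Gatm at 0.583 CPM per kb. The values from Ckb to Ak1 lie closer together than the cells of any of these genes. In P5 negative cells the order was Ckb at 64.0, Gamt at 20.6, Ckmt2 at 15.6, Gatm at 1.06 and Ak1 at 0.457 CPM per kb, with Ckm and Slc6a8 at 0. Amplified antisense RNA can favour the 3′ ends of transcripts, and its effect on these orders was not tested.

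Counted over the comparison of P5 positive with E14.5 positive cells, 4 of the 7 genes (Ckm, Ckb, Ckmt2 and Ak1) were at least 2-fold higher with at least 10 CPM in the higher group. The other 3 were under 10 CPM. Among all 7809 genes with at least 10 CPM in either group, 32.2% were higher and 32.5% lower by the same rule, with a median log2 ratio of -0.07. The 4 kinases had a median of 2.74. None of the 7 was called lower. With cardiomyocyte-led cells only, all genes split 26.8% higher to 40.3% lower with a median of -0.51, and the same 4 genes were higher. No member had groups that did not overlap, as 1.5% of all genes had, since at least 1 P5 positive cell, often L2P12, lies within or below the E14.5 range of each. All 4 log2 ratios stayed above 1 against either title range of E14.5 and under edgeR's and DESeq2's size factors, which moved the median of all genes by 0.16 and 0.38.

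**Figure D3:**
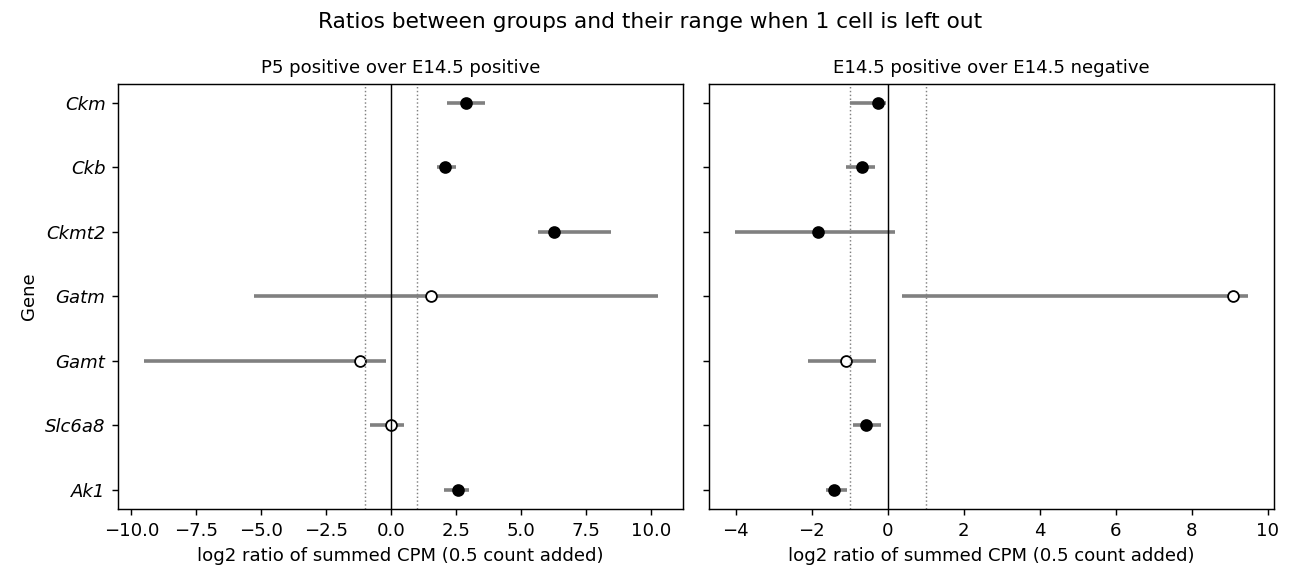
Log2 ratios of summed CPM for the 7 genes, P5 positive over E14.5 positive (left) and E14.5 positive over E14.5 negative (right); grey lines span the values with each cell left out in turn, dotted lines mark 2-fold, and open circles are genes under 10 CPM in both groups. For Gatm and Gamt, span ends at which a group has no read are set by the 0.5 count added. In the right panel the Gatm point and its whole span are set by it, because E14.5 negative cells have no Gatm read. Ckm, Ckb, Ckmt2 and Ak1 lie to the right of 2-fold in the left panel over their whole spans, while the span of Ckmt2 crosses 0 in the right panel.

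Reporter-positive and reporter-negative cells of E14.5 were compared next, a comparison of cells in the geminin-marked phases with the rest. Cycling markers spanned 596 to 5992 CPM in the positive and 0 to 1534 CPM in the negative cells. Of the 7 genes, 5 had at least 10 CPM in the higher group. No gene of these was called higher in positive cells (16.2% of 7311 genes were) and 2 were called lower, Ckmt2 and Ak1 (22.3% of the 7311 were). With 5 genes, these counts are too small to be set apart from the shares of all genes. None of the 7 had groups that did not overlap, as 0.342% of all genes had. Ak1 was 18.0 against 47.8 CPM, a log2 ratio of -1.41 (-1.47 to -1.35), and Ckmt2 was 14.7 against 52.6 CPM, a log2 ratio of -1.84 (-1.90 to -1.77). The Ckmt2 value rests on N28, which has 238 CPM and 79.8% of the negative group's reads: it was 0.19 without N28 and -4.02 without G27. Ckm (169 against 202 CPM, log2 ratio -0.26), Ckb (15.2 against 24.3 CPM, -0.68) and Slc6a8 (9.54 against 14.2 CPM, -0.57) did not reach 2-fold, and Ckm gave -0.99 without G27. Gatm and Gamt were under 10 CPM in both groups, Gamt narrowly, at 9.90 CPM in negative cells. With cardiomyocyte-led cells only, Gamt had 4.59 against 10.7 CPM and was called lower as well (-1.22), beside Ckmt2 (-1.98) and Ak1 (-1.52), while Ckm (-0.36), Ckb (-0.83) and Slc6a8 (-0.60) stayed under 2-fold.

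Cell titles at E14.5 fall into numbers 1 to 10 and 21 to 30, and the labels do not say what the numbers mark. Within 1 to 10 (6 positive and 5 negative cells) Ckm was 27.4 against 140.0 CPM, a log2 ratio of -2.35, and within 21 to 30 (4 positive and 6 negative cells) it was 252 against 227 CPM, a log2 ratio of 0.15. Cardiomyocyte markers moved the same way, at 16902 against 28000 CPM in the first range and 33391 against 23493 CPM in the second. The lower Ak1 of positive cells was seen within 21 to 30 (-1.58) and hardly within 1 to 10 (-0.12). Ckmt2 gave 0.82 within 1 to 10, and Slc6a8 gave 0.59 within 1 to 10 and -1.61 within 21 to 30. Ckb was lower in positive cells within both ranges, at -0.36 and -0.65, as was Gamt, at -2.51 and -0.81. The direction thus held in both ranges for Ckb, Gamt and Ak1, and not for Ckm, Ckmt2 and Slc6a8.

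P5 positive cells were set against P5 negative cells, which at the level of markers compares mostly cardiomyocyte-led cells with cells led by other types. Called higher were 3 genes, Ckm, Ckmt2 and Ak1 (30.4% of 8304 genes were), and 1, Gamt, was called lower (38.9% were). Ckm was at least 34619-fold higher against the floor of 3 counts, and its ranges did not overlap, as for 2.12% of all genes. Its lowest P5 positive cell is L2P12 at 2.75 CPM. Ak1 had a log2 ratio of 6.84 (6.52 to 7.17), and 12.81 (10.33 to 18.12) without L2N12, which holds 98.7% of the negative group's reads and leaves 1 read. Ckmt2 had 5.60 (5.54 to 5.67), and 12.82 without L2N7, whose 67.5 CPM is 99.6% of that group's reads and whose cardiomyocyte markers stood at 386 CPM. Slc6a8 was at least 265-fold higher against the floor (log2 ratio 8.05, exact interval from 7.75) but, at 9.58 CPM, just under 10 CPM. The count of genes called higher was 4 under edgeR's and DESeq2's size factors and with totals without the 20 most abundant genes. Ckb had a log2 ratio of -0.55, under 2-fold, and 1.64 without L2N10. Gamt was 1.997 against 20.3 CPM, a log2 ratio of -3.35 (-3.58 to -3.13). It was -2.21 without L2N7, and without L2P10, which holds all reads of the positive group, Gamt was at least 539-fold lower against the floor. These differences and the difference in cell type markers cannot be told apart by reporter state.

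The comparison of P5 negative with E14.5 negative cells shares these cells, and its groups likewise differ in cell type markers. Against the floor of 3 counts, Ckm was at least 5590-fold lower and Slc6a8 at least 392-fold lower. The ranges of Ckm did not overlap, as for 3.2% of 8410 genes. Ak1 had a log2 ratio of -5.65, and -11.63 (-16.93 to -9.15) without L2N12, which leaves 1 read. Ckmt2 had -1.18, but 0.85 without N28 and -8.40 without L2N7. These 4 genes were called lower (34.2% of all genes were), and Ckb and Gamt were called higher (36.8% were). Ckb had a log2 ratio of 1.95 that was -0.23 without L2N10, and Gamt had 1.04, just past the threshold, that was -0.10 without L2N7 and 1.83 without N30. Gatm was under 10 CPM.

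The rest of the phosphocreatine pathway was read from 6 lists, again for reporter-positive cells of P5 over those of E14.5, where 32.2% of all genes were called higher and 32.5% lower. Among adenylate and nucleotide kinases, which exchange phosphate between nucleotides, 11 of 17 listed genes were in the table and 10 had at least 10 CPM. Of these 3 were higher, 2 lower and 5 neither, with a median log2 ratio of 0.29. Nme6 (21.4 against 2.65 CPM, log2 ratio 3.01) and Nme3 (69.8 against 10.7 CPM, 2.70) were highest. The mitochondrial isoforms Ak4 (0.630 against 27.05 CPM, -5.41) and Ak3 (5.63 against 26.4 CPM, -2.23) were lowest. Ak1 therefore stood on the other side of Ak3 and Ak4, and all 3 differed by more than 2-fold.

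The mitochondrial ATP export partners, the ADP/ATP carriers and porins beside which Ckmt2 works, were near level. None of the 6 with at least 10 CPM was called in either direction, with a median of 0.34. Slc25a4, the ADP/ATP carrier of heart and muscle, had 17402 against 11622 CPM (0.58), and Slc25a3, the phosphate carrier, had 1860 against 1028 CPM (0.86). The carrier Slc25a5 had 4466 against 6887 CPM (-0.62) and the porin Vdac1 180 against 308 CPM (-0.78). With cardiomyocyte-led cells only, 1 of the 6 was called higher. Ckmt1, the ubiquitous mitochondrial creatine kinase, was the seventh and stayed under 10 CPM.

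AMPK, the kinase that senses AMP made by adenylate kinase, had all 7 subunit genes at 10 CPM or more: 2 were higher, 2 lower and 3 neither (median -0.57). The beta subunit Prkab1 had 46.1 against 4.90 CPM (3.24) and the gamma subunit Prkag3 39.1 against 9.15 CPM (2.10), with 85.5% of its P5 reads in 1 cell. The catalytic subunit Prkaa2 had 84.3 against 237 CPM (-1.49), and Prkag1 had 42.1 against 70.1 CPM (-0.73).

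Genes of creatine precursor metabolism, which handle arginine, glycine and the methyl donor, had 8 of 13 genes of the table at 10 CPM or more, with 2 higher, 1 lower and 5 neither (median 0.01). Shmt1 had 50.3 against 35.9 CPM (0.49) and Mat2a 310 against 249 CPM (0.32). The arginine transporter Slc7a1 had 5.73 against 25.01 CPM (-2.12) and Mat2b 74.8 against 144 CPM (-0.94). With cardiomyocyte-led cells only, 3 were lower and 2 higher.

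Genes for creatine kinase docking and ATP use had 9 of 10 at 10 CPM or more, with 3 higher, 3 lower and 3 neither (median 0.01). Myom2, an M-band protein to which muscle creatine kinase binds, had 29.4 against 0.0380 CPM (9.48), with reads of 10 CPM or more in 4 of 6 P5 positive and 0 of 10 E14.5 positive cells. Myom1 of the same list was under 2-fold, at 118 against 79.2 CPM (0.57). It had 10 CPM or more in 5 of 6 P5 positive and all 10 E14.5 positive cells. Ttn, or titin, which spans the sarcomere, had 1102 against 3454 CPM (-1.65). Genes of this list thus lay on both sides.

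Among regulators of muscle creatine kinase, 8 of 11 had at least 10 CPM, with 2 higher, 3 lower and 3 neither (median -0.61). The nuclear receptors Ppara (41.8 against 6.18 CPM, 2.76) and Esrra (34.4 against 9.17 CPM, 1.91) were highest, with 86.7% and 68.3% of their P5 reads in 1 cell. Mef2a, 1 of several factors of the MEF2 element, had 76.8 against 303 CPM (-1.98) and the cofactor Myocd 20.2 against 61.4 CPM (-1.61). Between reporter groups of E14.5 the 6 lists had 3 higher and 5 lower calls among 40 genes, where 16.2% of all genes were higher and 22.3% lower.

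**Figure D4:**
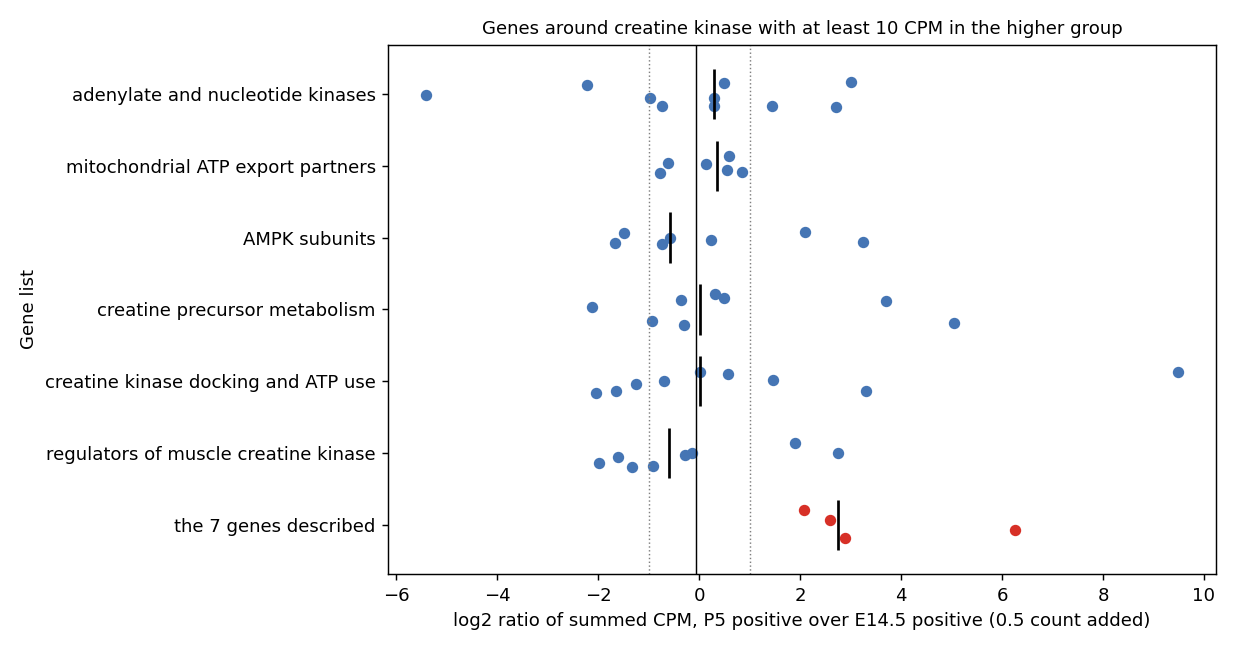
Log2 ratios between the positive cells of P5 and of E14.5 for every gene with at least 10 CPM in the higher group, in 6 lists around creatine kinase and among the 7 genes described (red); short bars are medians, the solid line is the median of all genes (-0.07) and dotted lines mark 2-fold. The 4 red points (2.08 to 6.26) lie to the right of 2-fold, whereas each list except the mitochondrial partners has genes on both sides.

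Genes with the pattern most like the kinases were sought among 3252 genes with a mean of at least 50 CPM, over all 33 cells. For Ckm these were Hspb6, a small heat shock protein of muscle (r = 0.93), Pgam2, the muscle phosphoglycerate mutase (0.93), and Actn2, the sarcomeric alpha-actinin (0.92). Actn2 had 523 CPM in P5 positive and 0.193 CPM in P5 negative cells, and Hspb6 had 209 and 0 CPM. Over the 25 cardiomyocyte-led cells, the first 3 were Ndufs6 (0.95), Crip2 (0.93) and Cox6b1 (0.93). For Ckmt2 they were the respiratory chain subunits Ndufa13 (0.68) and Ndufb7 (0.67) and the carnitine acetyltransferase Crat (0.67), and over cardiomyocyte-led cells Prdx2 (0.80), Ndufb7 (0.79) and Uqcrc1 (0.78). For Ckb they were Nsmce1 (0.70), Rabac1 (0.63) and Ctsd (0.62), and over cardiomyocyte-led cells Atp6v1g1 (0.82), Puf60 (0.81) and Fam195a (0.81). By Spearman rho over the 33 cells, the first genes were Myl3 (0.96) for Ckm, Lias (0.69) for Ckmt2 and Prdx2 (0.67) for Ckb. The likeness of Ckm was thus the closest of the 3, and all values are descriptions over cells that differ in age, cell type and depth.

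An antisense transcript, A930016O22Rik, overlaps Ckm and had at most 0.194% of the reads of Ckm in any group. Another, 1700119I11Rik, overlaps Ckmt2 and was not analysed here. Whether the counting used strand is not given in the sources used here, so reads of a gene and its antisense partner cannot be told apart.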

How the data were processed

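Per the labels, cells were sorted, accepted by PCR for Tnnt2 and sequenced from TruSeq libraries. Per the submitters' processing notes, CASAVA 1.8.2, STAR 2.4.0j, HTSeq 0.6.1p1 and genome build mm10 were used. The authors deposited raw read counts, 1 column per cell, and no column lacked a sample. The annotation, strand setting, read multiplicity rule and filters are not given in the sources used here. Molecular identifiers are not mentioned, so intervals and floors cover counting error only. Rows turned into dates by a spreadsheet (22, with 0.315% of counts) stayed in the totals.

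From the counts, CPM and log2 ratios of summed CPM were computed with Python 3.11.15 and scipy 1.17.1. Intervals are exact Poisson for levels and Clopper-Pearson for ratios and shares, at 95%. A call needs a 2-fold ratio and 10 CPM in the higher group. Ratios given with an interval are of the counts as they stand; calls, medians over genes and ratios under other settings have 0.5 count added. Where a group had no read, a bound against 3 counts over the group replaces the ratio. This floor lies below the upper 95% Poisson limit of a group without reads, so such bounds are not 95% limits. A cell is cardiomyocyte-led where its 11 markers sum higher than each other list of endothelial, fibroblast and mural, red blood cell or immune markers. Size factors came from edgeR 4.0.16 (TMM) and DESeq2 1.42.0 (poscounts). The scripts were tested on simulated data. Likeness used log2(CPM + 1).

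Named in the text are the 7 genes, in each pathway list the 2 highest and 2 lowest ratios among genes with at least 20 CPM in the higher group, and the 3 genes most like Ckm, Ckb and Ckmt2. Ckmt1 and Myom1 were named beside these for their roles. The members, lists and markers were chosen with earlier results of these data known. List genes missing from the table were not analysed here. Some genes that this rule names are not reported here. Positions are from GENCODE M21 on mm10. Alternatives were equal weight of cells, the size factors, totals without the 20 most abundant genes, cardiomyocyte-led cells, leaving out each cell, no CPM minimum, title ranges, thinning to 8671357 counts and Spearman rho. Scaling to cardiomyocyte marker reads, age ratios by title range, and list counts in cardiomyocyte-led cells, were added after seeing the data.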

Additional observations from a re-analysis of the deposited data

Results flagged for a closer look

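Single cells stood apart from the rest of their group by Dixon's limit in 10 of 19 sets of values tested, in groups of 6 to 10 cells. Chance flags about 1 in 20 such sets where values are normally distributed, which these are not: a set with reads in only 1 cell (Gatm in G6 and in L2N9, Gamt in L2P10) exceeds the limit by construction. Negative cells of E14.5, being 11, were left out of this check. Among the kinases, E14.5 positive cell G27 had 376 CPM of Ckm (next 202) and 50.5 CPM of Ckmt2 (next 24.7), and it is the deepest library, at 38465225 counts. P5 negative cell L2N10 had 442 CPM of Ckb (next 111), cell L2N7 had 67.5 CPM of Ckmt2 (next 0.777), and cell L2N12 had 4.63 CPM of Ak1 (next 0.194). For creatine synthesis, Gatm had 25.4 CPM in E14.5 positive cell G6 (next 0), 16.7 CPM in P5 positive cell L2P12 (next 0.0748) and 19.1 CPM in P5 negative cell L2N9 (next 0). Gamt had 23.9 CPM in E14.5 positive cell G25 (next 6.92) and 14.6 CPM in P5 positive cell L2P10 (next 0).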

How the results depend on the processing

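The count of 4 genes higher at P5 among reporter-positive cells was 4 with each cell left out, equal weight, both kinds of size factors, totals without the 20 most abundant genes and cardiomyocyte-led cells, and 5 without the CPM minimum; scaled to cardiomyocyte marker reads, Ckb gave 0.92. Without the CPM minimum, 1 gene was lower at P5 and 1 was higher in E14.5 positive cells, against 0 for each. Within titles 1 to 10, 1 gene was lower in E14.5 positive cells, against 2 (2 to 3 over the cells left out). That 1 gene was Ckm (-2.35). Neither Ckmt2 (0.82) nor Ak1 (-0.12), the 2 called over all cells, was 2-fold lower there. In P5 positive over negative cells, 4 genes were higher under both kinds of size factors, totals without the 20 most abundant genes and no CPM minimum, against 3. In P5 negative over E14.5 negative cells, 1 gene was higher with equal weight of cells and with totals without the 20 most abundant genes, against 2, and 1 to 2 with each cell left out. Among ratios called past 2-fold, those that changed sign were Ckmt2 in E14.5 positive over negative cells (0.19 without N28, 0.82 within titles 1 to 10, and -4.02 to 0.19 over the cells left out) and, in P5 negative over E14.5 negative cells, Ckb (-0.23 without L2N10, up to 2.504 over the other cells), Ckmt2 (0.85 without N28, down to -8.40) and Gamt (-0.10 without L2N7, up to 1.83). Ratios not called also changed sign, among them Ckb in P5 positive over negative cells (1.64 without L2N10). The cause was not tested.

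The Ckm share moved beyond its counting interval, without leaving its high level, in E14.5 positive cells (88.0% with equal weight, 84.5 to 93.6% with each cell left out), E14.5 negative cells (88.9% in cardiomyocyte-led cells, 88.5 to 90.9%) and P5 positive cells (94.7% with equal weight, 95.6% in cardiomyocyte-led cells, 91.7 to 95.9%). Thinning left out 6 cells and moved 2 of 28 shares of cells with a read, Ckb and Ckmt2 in P5 positive cells, both to 100%. Both moves came from leaving out L1P5, the only P5 positive cell without a read of these genes. The cardiomyocyte-led setting gave no value against P5 negative cells, which hold no such cell. No paired analysis was possible because the labels give no replicate numbers or animals that tie cells across groups.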
